A study of Mus musculus with 2 samples.

Results

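The nuclei described here were the brown adipocyte nuclei with the highest values of a score that sets the UMIs of Fgf14, Erbb4, Nol4l, Slc24a3, Med12l and Ntrk3 (the raised genes) against those of Aspg, Pmepa1, Acot11, Gpd1, Dgat2, Hk2 and Slc25a42 (the lowered genes). They were chosen by measured values of these same libraries, so the levels of the 13 score genes in them describe the choice and are not results. Brown adipocyte nuclei, called base nuclei below, were barcodes with at most 10% mitochondrial UMIs and with Ppara and Cidea together at 0.3% or more of UMIs. At most 1 of 8 marker genes of other cell types was allowed in them, and fewer than 3 genes of a guanylate-binding set of 6 and of a white-type set (Slc7a10, Trhde, Retn, Agt). The score was the log2 ratio of raised to lowered UMIs with 1 added to each, and the highest 33.3% of base nuclei over both libraries were kept. This gave 3880 high-score nuclei of 11638 base nuclei and of 29175 barcodes in all.

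The series compares brown adipose tissue of mice at 4 weeks in 2 single-nucleus libraries, 1 of genotype KO, given in the series design as an Nfe2l1(f)-KO, and 1 of genotype Flox. Which promoter drove the deletion, which part of Nfe2l1 was removed, and the strain, sex and number of the mice are details that the sources used here do not give. Libraries were made with the droplet-based 10x Genomics 3' chemistry, version 3. With 1 library per genotype there was no replicate, so no test was run, and every interval below is a 95% interval that covers counting error only.

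Brown adipocytes burn fatty acids and glucose in their mitochondria and release the energy as heat through the uncoupling protein UCP1. They also store triglyceride in many small droplets, and DGAT2, which adds the last acyl chain of a triglyceride, and GPD1, which makes its glycerol backbone, belong to that store. HK2 phosphorylates glucose, ACOT11 is a thioesterase of long acyl-CoA, and SLC25A42 carries coenzyme A into mitochondria. PMEPA1 dampens TGF-beta signalling. Of the raised genes, Erbb4 encodes a receptor tyrosine kinase for neuregulins and Ntrk3 encodes TrkC, the receptor of neurotrophin 3. FGF14 is an intracellular member of the FGF family that binds voltage-gated sodium channels and is not secreted as a ligand. SLC24A3 exchanges sodium for calcium and potassium across the membrane, and MED12L is a relative of MED12 in the kinase module of Mediator, which links transcription factors to RNA polymerase II.

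The KO library held 13030 barcodes and 43080725 UMIs, and the Flox library 16145 barcodes and 46528077 UMIs, where the labels give a target of 8000 nuclei. The libraries shared 65 barcode sequences, carried by 6 high-score nuclei of the KO library and 11 of the Flox library. Nfe2l1, the targeted gene, had 1649 UMIs (306 CPM, that is, UMIs per 1000000 UMIs summed over the nuclei compared) in high-score nuclei of the library labelled KO, against 1036 UMIs (131 CPM) in those of the Flox library. The transcript was therefore more abundant under the KO label, with a log2 ratio of 1.22 (1.11 to 1.34) in high-score nuclei and 1.37 in the other base nuclei. Since the removed part of Nfe2l1 is not given, these 3' counts could not check the label. Every direction given between KO and Flox therefore rests on the label alone.

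The score formed 1 continuous distribution in each library, with no gap at the limit. The limit lay at a score of 0.67, with 484 nuclei within 0.1 above it and 515 within 0.1 below it. Nuclei just inside had a median of 24 raised and 14 lowered UMIs in the KO library and 22 and 13 in the Flox library, and nuclei just outside had 22 and 14 in the KO library and 20 and 13 in the Flox library. High-score nuclei are therefore treated here as a range of the score. Whether they form a separate cluster was not tested, and a score from so few UMIs per nucleus could not show it. The limit took 1431 of 6069 base nuclei of the KO library, or 23.6% (22.5 to 24.7, Clopper-Pearson), and 2449 of 5569 of the Flox library, or 44.0% (42.7 to 45.3). These shares were not taken as a measure of a cell type. A different share of such nuclei and a different level of the score genes cannot be told apart here. Several score genes differed between the libraries over all base nuclei. Log2 ratios of KO over Flox there were 0.67 for Pmepa1, 0.62 for Hk2, 0.31 for Dgat2, -0.70 for Nol4l, -0.44 for Slc24a3 and -0.34 for Fgf14. With any 1 score gene left out, the highest 33.3% held between 22.5% and 26.9% of the KO library and between 40.9% and 45.6% of the Flox library.

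**Figure D1:**
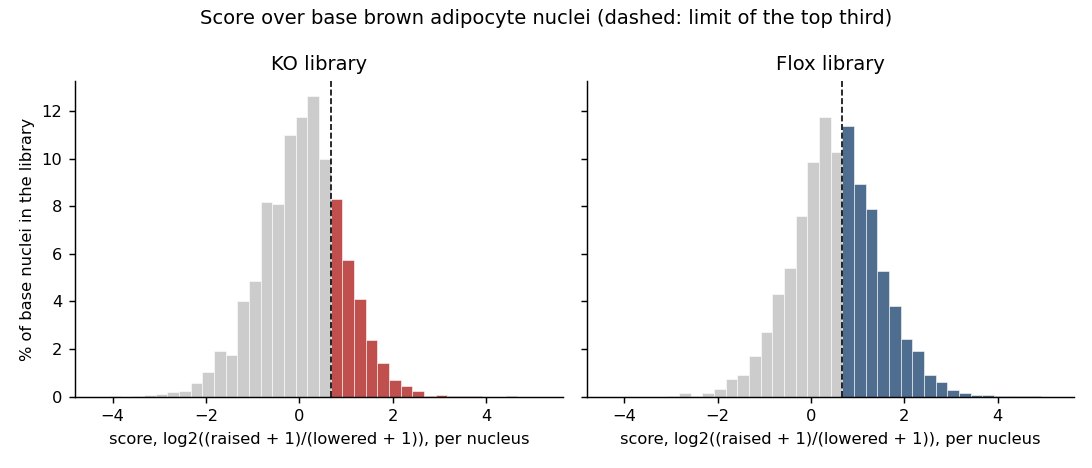
Score of each base nucleus (x axis, log2) against the percentage of the library's base nuclei in each bin (y axis), KO on the left and Flox on the right. The dashed line marks the limit of 0.67, coloured bars are high-score nuclei, and both libraries run through the limit without a gap.

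Depth moved with the choice. High-score nuclei had a median of 3362 UMIs in the KO library and 2821 in the Flox library, while the other base nuclei had 2762 in the KO library and 2653.5 in the Flox library. From the shallowest to the deepest quartile of base nuclei, the share chosen was 18.8%, 18.7%, 23.4% and 32.2% in the KO library and 40.9%, 42.7%, 45.6% and 47.0% in the Flox library. Median mitochondrial shares were 0.974% in high-score nuclei and 1.09% in other base nuclei of the KO library, and 0.443% in both sets of the Flox library. The part of depth in the results below was tested only by the alternatives given in the closing section.

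Fgf14 and Erbb4 lend their names to the set, but most raised UMIs came from other genes. Ntrk3 gave 33.5% of the raised UMIs of high-score nuclei in the KO library and 33.1% in the Flox library, Erbb4 30.01% and 23.4%, and Slc24a3 25.5% and 31.8%. Fgf14 gave 6.96% in the KO library and 6.99% in the Flox library, and Med12l and Nol4l together gave less than Fgf14 in each library. Ntrk3 was the most abundant raised gene in 547 of the 1431 nuclei of the KO library and in 973 of the 2449 of the Flox library, whereas Fgf14 led in 46 and 101. All 6 raised genes were detected together in 96 high-score nuclei of the KO library and 176 of the Flox library, and 4 of 6 was the most frequent number, in 538 and 907 nuclei.

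By the choice itself, Fgf14 stood at 592 CPM in high-score nuclei and 304 CPM in other base nuclei of the KO library, and at 581 CPM and 400 CPM in the Flox library. Erbb4 stood at 2552 CPM in high-score nuclei and 1456 CPM in other base nuclei of the KO library, and at 1942 CPM and 1330 CPM in the Flox library. These genes were present on both sides of the limit and differed in degree. At least 1 Fgf14 UMI was found in 49.5% of high-score nuclei and 34.0% of other base nuclei of the KO library, and in 47.0% and 39.8% in the Flox library. Nuclei with both Flt1 and Cyyr1, genes of endothelial cells, and under 0.1% of UMIs from Ppara and Cidea had an Fgf14 UMI in 5.89% of 526 nuclei in the KO library and 6.67% of 615 in the Flox library, at median depths of 1826.5 and 1538 UMIs. The shares in base nuclei thus lay above those in these Flt1 and Cyyr1 positive nuclei, at a greater depth. Whether the latter lack the gene was not tested. Single nuclei among them held up to 12 Fgf14 UMIs in the KO library and 11 in the Flox library. In mm10, Fgf14 lies on the minus strand at chr14:123977907-124677127 and Erbb4 on the minus strand at chr1:68032186-69108059.

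Each score gene was next left out in turn, the highest 33.3% were taken again without it, and its own level was compared between the new set and the rest. The score was set with earlier results of these data known, so these ratios describe it and are no independent support for it. The new sets also largely repeated the old one. Without Pmepa1, 1376 of 1529 chosen nuclei of the KO library and 2355 of 2448 of the Flox library were high-score nuclei. Held out in this way, the 7 lowered genes were all lower in the new high-score nuclei of both libraries. Pmepa1 had 273 CPM in the chosen nuclei and 422 CPM in the rest of the KO library, a log2 ratio of -0.63 (-0.71 to -0.55), and 157 CPM against 306 CPM in the Flox library, a log2 ratio of -0.96 (-1.05 to -0.86). Gpd1 was at -0.36 in the KO library and -0.39 in the Flox library, Dgat2 at -0.23 and -0.31, and Hk2 at -0.51 and -0.16. The smallest held-out ratio among the lowered genes was that of Slc25a42 in the KO library, -0.09 (-0.14 to -0.05).

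The raised genes held together less well. Erbb4, held out, had 1945 CPM in the chosen nuclei and 1688 CPM in the rest of the KO library, a log2 ratio of 0.21 (0.17 to 0.24), and 1640 CPM and 1577 CPM in the Flox library, a log2 ratio of 0.06 (0.02 to 0.09). Fgf14 was higher in the KO library, with 456 CPM and 353 CPM and a log2 ratio of 0.37 (0.30 to 0.44), but lower in the Flox library, with 445 CPM and 511 CPM and a log2 ratio of -0.20 (-0.26 to -0.14). Ntrk3 was at -0.03 (-0.06 to 0.00) in the KO library and 0.11 (0.08 to 0.14) in the Flox library. Med12l, at 0.30 in the KO library and 0.40 in the Flox library, and Nol4l, at 0.16 (-0.01 to 0.32) and 0.41 (0.28 to 0.54), were higher in both. Slc24a3 was at 0.14 and 0.06. So 4 of 6 raised genes were higher in both libraries when held out, and in the Flox library Fgf14 was lower where the rest of the score was high. Ranked by the other raised genes alone, a choice made after seeing the data, Fgf14 was at 0.031 in the Flox library and Ntrk3 at 0.093 in the KO library. For that reason the set is named by its score below, not by Fgf14 and Erbb4.

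**Figure D2:**
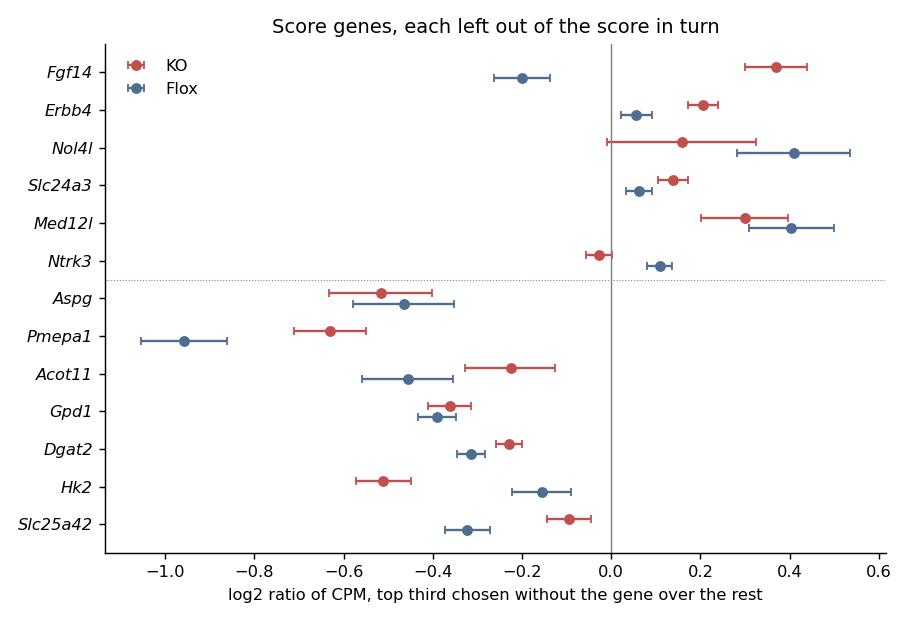
Log2 ratio of CPM (x axis) of each score gene (y axis) in nuclei chosen without that gene over the remaining base nuclei, with KO drawn above Flox and bars for the 95% counting interval. The 7 lowered genes lie left of 0 in both libraries, while Fgf14 lies right of 0 in KO and left of 0 in Flox.

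Markers of adipocytes and of the brown lineage, outside the rule, were present in high-score nuclei. Ebf2, a factor that marks the brown lineage, was at 2487 CPM in high-score nuclei and 2331 CPM in other base nuclei of the KO library, and at 2020 CPM and 1863 CPM in the Flox library. Prdm16, a regulator of brown fate, was at 732 CPM and 702 CPM in the KO library and at 624 CPM and 564 CPM in the Flox library. Pparg, the main factor of adipocyte formation, was at 5861 CPM and 5118 CPM in the KO library and at 7134 CPM and 6491 CPM in the Flox library. Adipoq, which encodes the hormone adiponectin, was at 348 CPM and 371 CPM in the KO library and at 310 CPM and 327 CPM in the Flox library. These markers were present on both sides of the limit. Over the brown identity list, however, 10 of 17 measured genes were below 0 in both libraries and 3 above 0 in both. Of all 10588 genes with a symbol of their own, 3481 were below 0 in both and 2598 above 0 in both. In the Flox library 4 of the 17 were 1.5-fold or more lower, where 1.73% of all genes were. Cox7a1, a subunit of cytochrome c oxidase, was at 44.0 CPM and 53.6 CPM in the KO library and at 24.7 CPM and 39.8 CPM in the Flox library. Barcodes outside the base include nuclei set aside by its guanylate-binding limit. There Ebf2 was at 1924 CPM in the KO library and 1572 CPM in the Flox library, and Prdm16 at 434 CPM and 419 CPM. Cox7a1 was at 47.6 CPM and 38.9 CPM there, above high-score nuclei of both libraries. Ucp1 had few UMIs in either set. It was at 28.4 CPM (153 UMIs) in high-score nuclei and 33.6 CPM (492 UMIs) in other base nuclei of the KO library, and at 32.4 CPM (256 UMIs) and 69.0 CPM (664 UMIs) in the Flox library. Elovl3 and Dio2, further genes of active brown fat, were at most at 2.97 CPM in high-score nuclei.

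Markers of other cell types were measured in the same sums. The 10 endothelial markers outside the rule summed to 256 CPM in high-score nuclei and 216 CPM in other base nuclei of the KO library, and to 277 CPM and 218 CPM in the Flox library, against 1402 CPM in barcodes outside the base of the KO library and 1391 CPM in those of the Flox library. Most of that sum was Mecom, which alone was at 217 CPM and 173 CPM in the KO library and at 207 CPM and 140 CPM in the Flox library. The defining genes Pecam1 (7.80 and 14.3 CPM in high-score nuclei of the KO and Flox libraries) and Cdh5 (3.53 and 5.06 CPM) were near 0. Pericyte and smooth muscle markers, a list whose sum was no higher outside the base than in high-score nuclei, came to 4561 CPM and 3958 CPM in the KO library and to 4897 CPM and 4252 CPM in the Flox library, while its defining genes Rgs5, Pdgfrb and Myh11 stood between 4.64 and 12.01 CPM in high-score nuclei. Macrophage markers summed to 302 CPM and 296 CPM in the KO library and to 336 CPM and 305 CPM in the Flox library, with Adgre1 at 0.557 and 3.03 CPM in high-score nuclei of the KO and Flox libraries. Fibroblast markers summed to 196 CPM in high-score nuclei and 245 CPM in other base nuclei of the KO library, and to 200 CPM and 244 CPM in the Flox library. Skeletal muscle markers were lower in high-score nuclei, at 52.0 CPM and 78.2 CPM in the KO library and at 151 CPM and 175 CPM in the Flox library. Schwann and neural markers summed to 47.5 CPM and 67.0 CPM in the KO library and to 66.7 CPM and 78.5 CPM in the Flox library. The neuronal genes Rbfox3, Snap25 and Syt1 had at most 4 UMIs each in the high-score nuclei of either library. The part of these markers in the differences below was not tested.

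Genes outside the rule differed little between high-score nuclei and the other base nuclei. Of 10603 genes with at least 50 UMIs in each library, 13 (0.123%) were 1.5-fold or more higher in both libraries and 23 (0.217%) were 1.5-fold or more lower in both. Within 1 library the counts were larger, with 115 genes (1.08%) higher and 258 (2.43%) lower in the KO library, and 233 (2.2%) higher and 183 (1.73%) lower in the Flox library. Across the 10603 genes, the log2 ratios of the libraries had a Pearson correlation of 0.16, given as a description since genes are not independent and share depth. Among 6399 genes with at least 100 UMIs in each library and 20 CPM or more, none reached 1.5-fold in both. Of these, 1691 lay above 0 in both libraries and 2090 lay below 0 in both. With a minimum of 20 UMIs, 42 genes were higher and 69 lower in both libraries, and with 200 UMIs, 3 and 3. The rule for naming genes named none, and the genes of the next paragraphs were chosen after their values were seen, as those with the largest ratios shared by both libraries.

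Among well measured genes that were higher in high-score nuclei of both libraries, several encode membrane traffic and signalling proteins. Pid1, whose product binds the LDL receptor-related protein LRP1, was at 602 CPM and 454 CPM in the KO library and at 507 CPM and 374 CPM in the Flox library, with log2 ratios of 0.41 (0.35 to 0.47) and 0.44 (0.37 to 0.50). Sybu, for syntabulin, a kinesin adaptor, was at 61.4 CPM and 45.2 CPM in the KO library and at 71.3 CPM and 51.8 CPM in the Flox library. Gmds, an enzyme of GDP-fucose synthesis, had log2 ratios of 0.44 (0.27 to 0.60) in the KO library and 0.44 (0.28 to 0.61) in the Flox library. Bcl2, which restrains apoptosis, was at 0.42 and 0.41, and Gjc1, a connexin gene, at 0.43 and 0.63. Ston1, Zbtb1, Invs, Hpcal1, Ccdc30 and Csgalnact1 were also among the 12 highest, with the smaller of their 2 log2 ratios between 0.38 and 0.53. Low-count genes past 1.5-fold in both libraries included Mlkl, the effector of necroptosis, at 17.4 CPM and 11.3 CPM in the KO library and 28.3 CPM and 17.8 CPM in the Flox library.

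Of the 12 genes with the lowest shared ratios, Tfrc, the transferrin receptor for iron uptake, had the most UMIs. It was at 160 CPM in high-score nuclei and 233 CPM in other base nuclei of the KO library, and at 252 CPM and 415 CPM in the Flox library, with log2 ratios of -0.54 (-0.65 to -0.43) and -0.72 (-0.80 to -0.64). Dbp, a clock output factor, was at -0.49 (-0.78 to -0.22) in the KO library and -1.12 (-1.31 to -0.93) in the Flox library. Ckb, a creatine kinase, was at -0.52 and -0.59, and Nr4a1, an immediate early nuclear receptor, at -0.58 and -0.53. Fam20c, a kinase of secreted proteins, was at 30.3 CPM and 42.4 CPM in the KO library and 49.6 CPM and 99.5 CPM in the Flox library. Opcml, Lama2, Traf4, Cyp2e1, Rbms3, Cish and Zfp598 completed the 12 lowest. The sign of Lama2 in each library, of Ston1 and Opcml in the Flox library, turned under 1 alternative each. Lama2, a gene of fibroblasts, stood at 344 CPM and 359 CPM outside the base in the KO and Flox libraries, against 14.3 and 20.6 CPM in high-score nuclei. Perm1, a regulator of mitochondrial genes in muscle, was past 1.5-fold lower in both libraries, at 8.91 CPM and 14.3 CPM in the KO library and 12.9 CPM and 27.6 CPM in the Flox library. The immune gene C1qa and the muscle gene Ckm were also among the 23 lower genes.

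Levels were also taken in 6 steps along the score, cut at the sixths of its distribution over all base nuclei, with tied nuclei kept in 1 step. In the Flox library Ucp1 was at 60.1, 74.0, 82.4, 57.6, 45.3 and 21.1 CPM from the lowest to the highest step, and in the KO library it was at 32.7, 31.1, 39.7, 31.0, 27.3 and 29.95 CPM. The Flox values were highest in the third step and lowest in the highest one, while the intervals of the KO steps all overlapped. Dbp ran from 111 CPM in the lowest step to 27.2 CPM in the highest in the Flox library, and stayed between 23.0 and 38.4 CPM in the KO library. Tfrc was lowest in the highest step of both, with 274, 245, 212, 204, 185 and 124 CPM in the KO library and 416, 471, 428, 361, 313 and 199 CPM in the Flox library. Sybu and Pde3a, a cAMP phosphodiesterase, were highest in the highest step of both libraries. Pde3a had 269 CPM in the lowest and 438 CPM in the highest step of the KO library, and 301 CPM and 419 CPM in the Flox library.

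**Figure D3:**
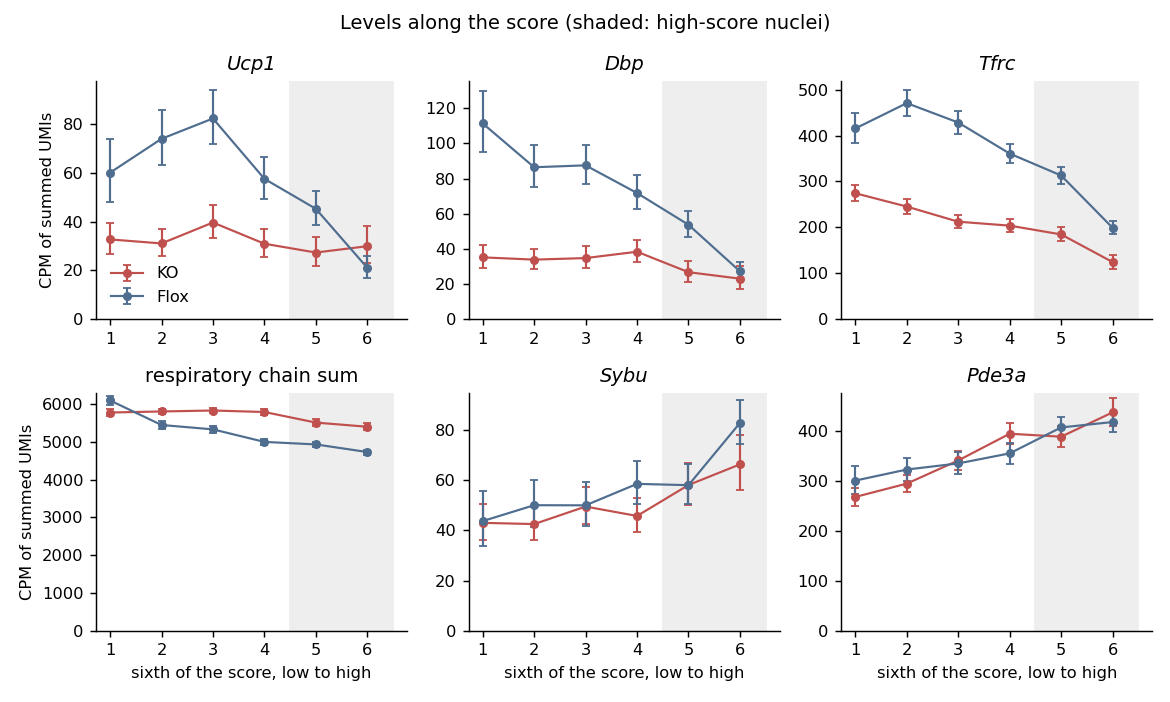
CPM of summed UMIs (y axes) in 6 steps cut at the sixths of the score over all base nuclei, ties kept together (x axes, low to high) for 5 genes and for the summed respiratory chain genes, with 95% Poisson intervals. The shaded steps are high-score nuclei. In Flox, Ucp1 is lowest in the highest step (21.1 CPM) and Dbp runs down along the score, while both vary less in KO. Tfrc is lowest, and Sybu and Pde3a highest, in the highest step of both.

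Genes of the respiratory chain and of the TCA cycle list sat below those of other base nuclei by small amounts. Fatty acid oxidation genes lay near the medians of all genes, which were -0.04 in the KO library and -0.01 in the Flox library. Their own medians were -0.05 in the KO library and 0.01 in the Flox library. Of 23 measured there, 9 were below 0 in both libraries, 4 above 0 in both and 10 of opposite sign. Of 35 measured nuclear-encoded subunits of the respiratory chain, 27 were below 0 in both libraries, 8 had opposite signs and 0 were above 0 in both, where 3481 of all 10588 genes with a symbol of their own were below 0 in both. The median log2 ratio of the list was -0.12 in the KO library and -0.15 in the Flox library, against -0.04 and -0.01 over all genes. Protein-coding genes spanning under 10000 bases had medians of -0.14 and -0.07, and the part of gene span in the list values was not tested. None of the 35 reached 1.5-fold in either library. Cyc1, the cytochrome c1 subunit of complex III, was at 119 CPM and 142 CPM in the KO library and at 103 CPM and 135 CPM in the Flox library. The summed list was at 5461 CPM in high-score nuclei and 5796 CPM in other base nuclei of the KO library, and at 4820 CPM and 5363 CPM in the Flox library. The 13 mitochondrially encoded genes had medians of -0.20 in the KO library and -0.11 in the Flox library, with 10 of 13 below 0 in both. Of 20 genes of the TCA cycle and branched-chain amino acid catabolism, 15 were below 0 in both. Bckdha, of the branched-chain ketoacid dehydrogenase, was at -0.12 in the KO library and -0.47 in the Flox library, and Idh2 at -0.12 and -0.33.

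Triglyceride assembly genes also leaned lower, outside the lowered score genes too. Of 12 triglyceride assembly genes other than Dgat2, 9 were below 0 in both libraries and 0 above 0 in both. Of all 10588 genes with a symbol of their own, 3481 were below 0 in both and 2598 above 0 in both. Agpat2, which makes phosphatidic acid, was at 120 CPM and 164 CPM in the KO library and at 107 CPM and 163 CPM in the Flox library, with log2 ratios of -0.45 (-0.58 to -0.32) and -0.61 (-0.73 to -0.49). Gpat3, of the first acylation step, was at -0.37 and -0.49. Fatty acid synthesis genes had opposite medians, -0.22 in the KO library and 0.06 in the Flox library. Fasn, the fatty acid synthase, was at -0.40 in the KO library and 0.06 in the Flox library. In glucose uptake, Trarg1, a regulator of GLUT4 traffic, was at -0.37 and -0.48, and Slc2a4, which encodes GLUT4, at -0.23 and -0.37. Of 25 genes of that list other than Hk2, 13 were below 0 in both libraries and 3 above 0 in both.

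The clock list had a median of -0.10 in the KO library and -0.21 in the Flox library, with 10 of 19 genes below 0 in both and 2 above 0 in both. Of all 10588 genes with a symbol of their own, 3481 were below 0 in both and 2598 above 0 in both. In the Flox library Nr1d1, a repressor of the clock, was at 29.5 CPM in high-score nuclei and 60.4 CPM in other base nuclei, and Ciart, a clock repressor, at 15.5 CPM and 30.02 CPM. In the KO library the same genes were at 43.6 CPM and 45.3 CPM and at 21.5 CPM and 24.4 CPM. Adipogenic factors had medians of 0.05 in the KO library and 0.09 in the Flox library, with 9 of 18 above 0 in both. Brown adipocyte identity genes had medians of -0.12 and -0.21. Ppargc1a, the coactivator of mitochondrial biogenesis, had opposite signs, at 844 CPM and 753 CPM in the KO library and at 561 CPM and 699 CPM in the Flox library.

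**Figure D4:**
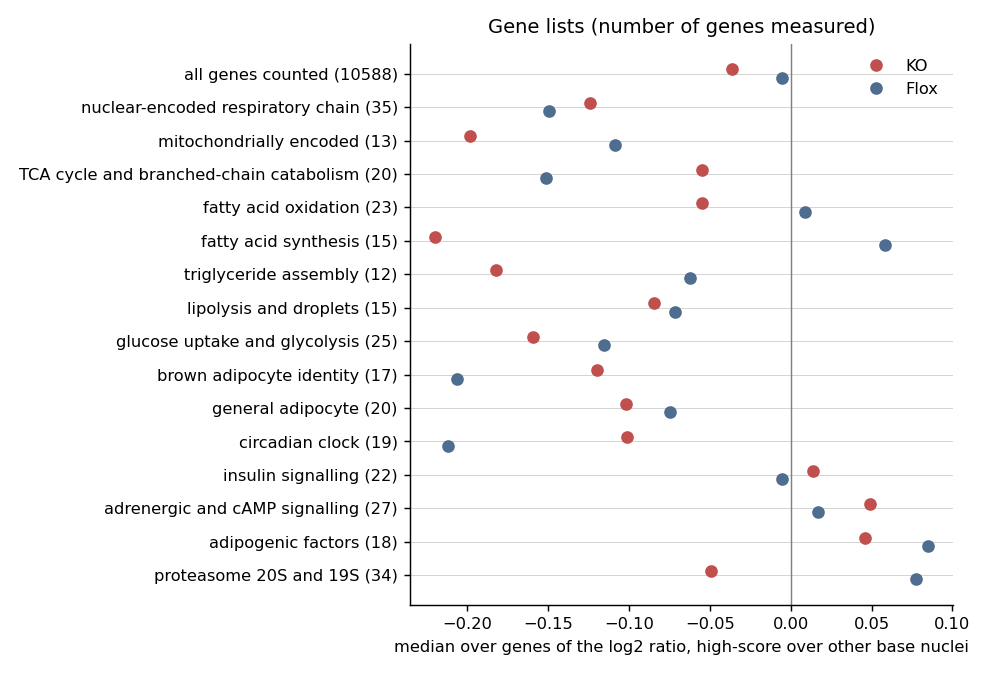
Median over the genes of each list (y axis, number of genes measured in brackets) of the log2 ratio of high-score over other base nuclei (x axis), with KO drawn above Flox. The respiratory chain, TCA cycle, triglyceride assembly and clock lists lie below the medians of all genes, -0.04 in KO and -0.01 in Flox, and the medians drawn lie between -0.22 and 0.09.

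The pathways around the raised genes were measured through their other members. For comparison, 2598 of all 10588 genes with a symbol of their own were above 0 in both libraries and 3481 below 0 in both. Of 7 measured ERBB ligands and receptors besides Erbb4, 2 were above 0 and 2 below 0 in both libraries. Nrg4, a neuregulin that brown fat secretes and a ligand of ERBB4, was at 1702 CPM in high-score nuclei and 1826 CPM in other base nuclei of the KO library, and at 1220 CPM and 1684 CPM in the Flox library, with log2 ratios of -0.10 (-0.14 to -0.07) and -0.46 (-0.50 to -0.43). Btc, for betacellulin, another ERBB ligand, was at 79.1 CPM and 65.1 CPM in the KO library and at 53.7 CPM and 48.6 CPM in the Flox library. Of 3 measured neurotrophin genes besides Ntrk3, Sorcs2, a sorting receptor that binds pro-neurotrophins, was at 0.05 (-0.11 to 0.20) in the KO library and 0.96 (0.79 to 1.13) in the Flox library. Of 7 measured genes of other FGFs and their receptors, 1 was above 0 and 2 below 0 in both libraries. Those past 1.5-fold were Fgf10 and Fgf11 in the KO library, at -0.69 and -1.09, and Fgf1 in the Flox library, at -0.82, all with few UMIs. The receptor genes Fgfr1, at -0.08 in the KO library and -0.07 in the Flox library, and Fgfr2, at -0.07 and -0.0025, were better measured. Only 2 sodium channel genes, the partners of FGF14, had 50 UMIs in each library, and the whole list of 15 summed to 15.8 CPM in high-score nuclei of the KO library and 29.1 CPM in those of the Flox library. Of 12 measured Mediator genes besides Med12l, 3 were above 0 and 3 below 0 in both libraries. Kcnd2, a potassium channel gene, was at 50.1 CPM and 29.7 CPM in the KO library and at 51.3 CPM and 41.1 CPM in the Flox library.

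What the raised genes shared, beside their place in the score, was length. Their median genomic span was 518234 bases (GENCODE vM21, mm10), against 29062 bases for the lowered genes and 27135 bases for all counted protein-coding genes. The log2 ratios of genes outside the rule followed the same order. From genes under 10000 bases through 30000, 100000 and 300000 bases to longer ones, median log2 ratios were -0.14, -0.07, -0.00, 0.07 and 0.11 in the KO library and -0.07, -0.02, 0.01, 0.06 and 0.07 in the Flox library. Of the 318 genes over 300000 bases, 71.4% were above 0 in the KO library and 61.6% in the Flox library, while of the 2140 genes under 10000 bases 26.4% and 37.2% were. Over 10574 genes, Spearman's rho of span and log2 ratio was 0.30 in the KO library and 0.19 in the Flox library, given as a description, since all points share the libraries, their depth and the score. The part of span in the gene and list values above was not tested.

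Between the libraries, high-score nuclei differed by 2-fold or more at 42 genes higher (0.405%) and 215 lower (2.07%) under the KO label, of 10376 with at least 50 UMIs over both. At 1.5-fold, 278 (2.68%) were higher and 781 (7.53%) lower. Of the 42 higher genes, 9 were mitochondrially encoded. In the other base nuclei, 102 genes were higher and 189 lower of 11258.

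The genes named next had to be at least as abundant in high-score nuclei as in barcodes outside the base, in the library with more of the gene. Some passed through that library alone, namely Abhd13, Atp6v1c2 and Acot2 through KO and Grip1, Kcnk2, Inha, Eef2k, Aspscr1 and Dhx29 through Flox. Among the genes furthest higher under the KO label, G0s2, which encodes an inhibitor of the lipase ATGL, was at 557 CPM in the KO library and 262 CPM in the Flox library, a log2 ratio of 1.09 (1.01 to 1.17). Cebpa and Cebpb, factors of adipocyte differentiation, were at 113 CPM and 54.9 CPM, and at 128 CPM and 60.7 CPM, in the KO and Flox libraries. Ehhadh, the bifunctional enzyme of peroxisomal fatty acid oxidation, was at 207 CPM and 109 CPM, and Acot2, a mitochondrial thioesterase, at 43.2 CPM and 21.7 CPM. Acsm3, an acyl-CoA synthetase of medium chains, was at 229 CPM and 117 CPM. Kng1, for kininogen, had 369 UMIs in the KO library and 1 in the Flox library, a log2 ratio of 8.50 (6.59 to 14.39), and its reads may be shared with the similar gene Kng2. Abhd13, Atp6v1c2 and Ryr2, a calcium release channel, followed with log2 ratios of 1.19, 1.02 and 0.95.

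Of the genes that met the naming rule, the one furthest lower under the KO label was Rbfox1, a splicing factor, at 85.4 CPM in the KO library and 376 CPM in the Flox library, a log2 ratio of -2.14 (-2.28 to -1.996). Grip1, a scaffold of glutamate receptors, was at 4.83 CPM and 20.5 CPM, and Kcnk2, a potassium leak channel, at 9.09 CPM and 32.2 CPM. Inha, the inhibin alpha subunit, was at 9.28 CPM and 27.3 CPM, and Myh14, a non-muscle myosin, at 8.35 CPM and 22.5 CPM. Slc25a34, a mitochondrial carrier, was at 10.95 CPM and 25.2 CPM, and Eef2k, the kinase of elongation factor 2, at 51.8 CPM and 117 CPM. Aspscr1, which tethers GLUT4 vesicles, was at 24.1 CPM and 50.4 CPM. Grtp1, Rtn4rl1, Dhx29 and Eva1c completed the 12, with log2 ratios between -1.12 and -1.06. Skeletal muscle markers moved with the same contrast, with a median log2 ratio of -1.41 over 7 measured and sums of 52.0 CPM in the KO library and 151 CPM in the Flox library, and their part in the genes named here was not tested.

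Proteasome genes, the best known targets of NFE2L1, were lower under the KO label in high-score nuclei. Of 34 measured subunits and assembly factors, 14 were 1.5-fold or more lower and 0 higher, with a median log2 ratio of -0.50, where 7.53% of all genes were lower by 1.5-fold and the median of all genes was -0.05. Psmd1 was at 79.4 CPM in the KO library and 154 CPM in the Flox library, Psmd11 at 100.04 CPM and 179 CPM, and Psmc4 at 16.1 CPM and 31.1 CPM. In the other base nuclei 6 of 34 were 1.5-fold or more lower, with a median of -0.25, where 776 of all 11242 genes were. Respiratory chain subunits leaned the other way in high-score nuclei, with 33 of 35 above 0 and a median of 0.21, although none was 1.5-fold higher. Of all 10362 genes, 4428 were above 0. In the other base nuclei 28 of 35 were above 0, with a median of 0.11, where 5225 of all 11242 genes were. The 13 mitochondrially encoded genes were all 1.5-fold or more higher in both sets. Their median was 1.23 in other base nuclei and 1.19 in high-score nuclei. Their sum was also higher in the KO library in Flt1 and Cyyr1 positive nuclei, at 13191.7 CPM against 6359.05 CPM in the Flox library. In barcodes outside the base it was at 16134.9 CPM in the KO library and 7456.5 CPM in the Flox library. The difference in these genes was therefore not limited to base nuclei, and its cause was not tested. Among the adrenergic genes, Adra1a, for an alpha receptor of noradrenaline, was at 1860 CPM in the KO library and 1227 CPM in the Flox library. Of 22 guanylate-binding and interferon genes measured in high-score nuclei, 1 was 1.5-fold or more higher, where 2.68% of all genes were, and the median was 0.33. In the other base nuclei 15 of 25 measured were, where 491 of all 11242 genes were, and the median was 0.63. These counts did not leave out the guanylate-binding genes that the base rule limited, so they are partly tied to the choice of nuclei. Gbp7, 1 of the limited genes, was at 117 CPM and 84.2 CPM in high-score nuclei of the KO and Flox libraries. In other base nuclei Gbp7 was at 131 CPM and 69.7 CPM. The difference between the sets was not tested.

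For the score genes, the contrast in high-score nuclei is tied to their choice. Fgf14 was at 592 CPM in the KO library and 581 CPM in the Flox library in high-score nuclei, and at 304 CPM and 400 CPM in other base nuclei. Erbb4 was at 2552 CPM and 1942 CPM in high-score nuclei, and at 1456 CPM and 1330 CPM in other base nuclei.

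The log2 ratio of KO over Flox in high-score nuclei was then set beside that in other base nuclei. By the difference of the 2 ratios, 33 genes were 2-fold or more higher and 90 lower of 10373 measured in both sets, and the counting interval left out 0 for 33 and 85 of them. Ucp1 was among the 6 well measured genes furthest apart upward. Its ratio was -0.19 (-0.49 to 0.11) in high-score nuclei and -1.04 in other base nuclei, a difference of 0.85 (0.52 to 1.19). With the limit taken within each library, or with the highest 25% of scores, its ratio in high-score nuclei was 0.20 and 0.21. Adam12, a metalloprotease gene, was at 313 CPM and 308 CPM in high-score nuclei of the KO and Flox libraries, and at 238 CPM and 490 CPM in other base nuclei, a difference of 1.07 (0.96 to 1.18). Lgr6, a receptor of R-spondins, was at 245 CPM and 247 CPM in high-score nuclei and at 209 CPM and 388 CPM in other base nuclei. Nr1d1, Ryr2 and Ago4 were the others, with differences of 0.98, 0.97 and 0.87.

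The genes furthest apart downward were Inha, Cracr2b, Piwil2, Tmem132b, Slc25a34 and Neb, with differences between -1.31 and -1.02. Inha was at -1.55 (-2.03 to -1.11) in high-score nuclei and -0.23 in other base nuclei. Tmem132b was at 114 CPM and 80.1 CPM in high-score nuclei of the KO and Flox libraries, and at 148 CPM and 48.2 CPM in other base nuclei, so that it was higher under the KO label in both sets. Slc25a34 was at -1.19 (-1.64 to -0.77) in high-score nuclei and -0.10 in other base nuclei. Neb is a gene of skeletal muscle fibres and stood at 84.1 CPM in the KO library and 263 CPM in the Flox library outside the base. Rbfox1 was lower under the KO label in both sets, with log2 ratios of -2.14 and -1.58. A difference of this kind mixes genotype with the choice of nuclei, since the limit took a larger share of the Flox library.

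**Figure D5:**
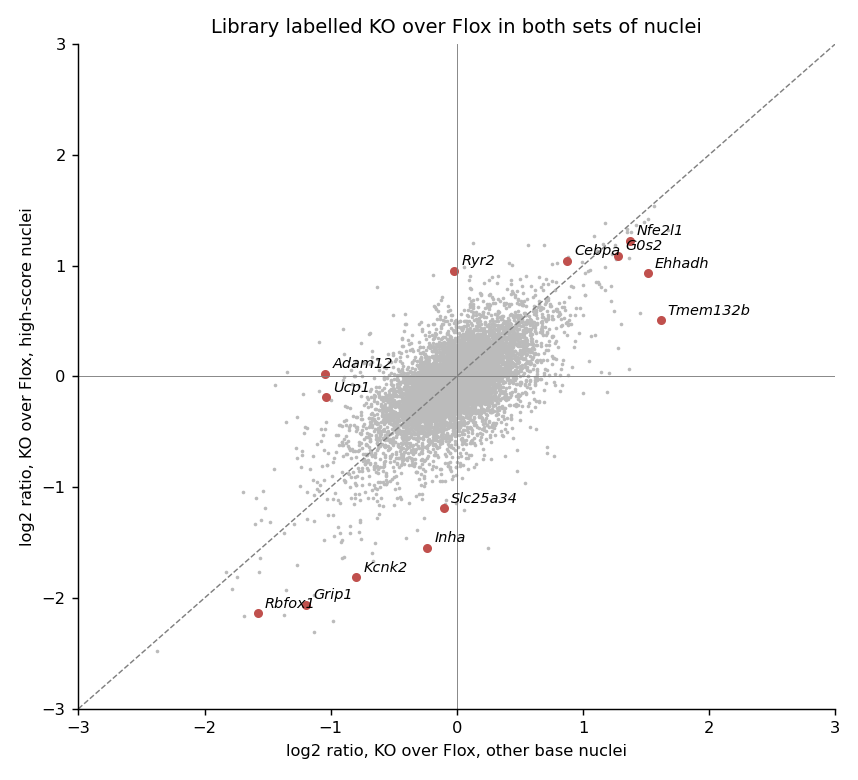
Log2 ratio of the library labelled KO over Flox in high-score nuclei (y axis) against that in other base nuclei (x axis) for 9188 genes with at least 100 UMIs in each set, with 2 genes beyond the axes left out. Points on the dashed line have equal ratios. Nfe2l1 lies near its upper end and Rbfox1 near its lower end, Ryr2, Ucp1 and Adam12 lie above it and Inha and Slc25a34 lie below it.

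Levels in high-score nuclei were also set beside those of related nuclei. Nuclei that passed the base rule except for 3 or more of 6 guanylate-binding genes numbered 1515 in the KO library and 1580 in the Flox library, at median depths of 4879 and 3483 UMIs. Their Erbb4 level was 1745 CPM in the KO library and 1239 CPM in the Flox library, below the 2552 CPM and 1942 CPM of high-score nuclei, which were chosen for it. Their Ucp1 level was 39.9 CPM in the KO library and 17.2 CPM in the Flox library. In the lowest 33.3% of the score, with 2541 nuclei in the KO library and 1340 in the Flox library, Ucp1 was at 31.9 CPM and 68.7 CPM. The summed guanylate-binding and interferon list outside the rule was at 1726 CPM in high-score nuclei of the KO library. In guanylate-binding positive nuclei of that library it was at 2976 CPM. The same sets of the Flox library were at 1436 CPM and 3571 CPM. Because 6 guanylate-binding genes divided these sets, the direction is tied to the choice and is not a result. White-type nuclei, with 11 in the KO library and 14 in the Flox library, were too few to compare.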

How the data were processed

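Single-nucleus RNA was measured in 1 library per genotype, so the sums of nuclei of a library are 1 value and no test was run. The deposited files hold UMI counts per gene and barcode for 22620 genes, made by Cell Ranger 5.0.0 (per the file headers) on build mm10 (per the submitters' processing notes). No other upstream step is stated there. Every barcode had at least 500 UMIs.

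From these counts, CPM was computed here as the sum of a gene's UMIs over a set of nuclei, scaled to the set's total. Log2 ratios between sets had 0.5 UMI added, and their intervals come from exact binomial limits. These intervals and the Poisson and Clopper-Pearson ones cover counting error only. PCR copies are removed by the UMIs, but nuclei of a library share their source. High-score nuclei and gene lists were chosen with earlier results of these data known. Doublets were treated by the marker rule, with Scrublet (scanpy 1.11.5) as an alternative. It removed 1358 barcodes of the KO library and 2085 of the Flox library, among them 12.4% and 10.5% of high-score nuclei.

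Genes were counted with at least 50 UMIs, in each library for high-score over other base nuclei and over both libraries for KO over Flox. A gene was named where it had at least 100 UMIs, 20 CPM in the higher set and a 1.5-fold ratio, up to 12 each way (for KO over Flox also a CPM, in the library with more, not below that of barcodes outside the base), plus up to 4 per list each way and 6 each way for differences between sets, where that last filter and the 1.5-fold ratio were not applied. Not eligible were haemoglobins, ribosomal protein genes, mitochondrial genes, clones with no proper name and genes on the sex chromosomes. Gene spans came from GENCODE vM21, matched by gene ID for 22565 genes. Symbols shared by several gene IDs (42 IDs) were left out of the lists. Alternatives changed the limit, depth, doublets, mitochondrial share, scaling (with TMM factors of edgeR 4.0.16) and minimum UMIs. The count and ratio steps were tested on simulated data. Scripts ran under Python 3.11.15 with pandas 2.3.3, SciPy 1.17.1, matplotlib 3.10.9 and NumPy 2.4.6. Some genes that the naming rule or the ranking picked are not reported here.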

Additional observations from a re-analysis of the deposited data

How the results depend on the processing

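No paired analysis was possible because each genotype had 1 library and no result came from a test. Of 1521 values recomputed for 144 results, 1379 stayed within a set tolerance, 134 moved further and 8 changed sign. The tolerance was 1.5 times for counts, and the half-width of the counting interval for shares and named genes. For list medians it was the median half-width of single genes, which is wider than the error of a median. Held-out genes, medians over all genes and the correlation with span had a fixed margin, so staying within it is no statement about their counting error. The share of base nuclei with a high score was 33.3% in the KO library and 33.8% in the Flox library with a limit within each library, 16.7% and 34.4% for the highest 25% of scores, 40.6% and 60.7% for the highest 50%, and 26.0% and 41.3% after thinning to 1000 UMIs. Genes higher in both libraries numbered 6 after thinning, 7 by mean CPM over nuclei, 42 with a minimum of 20 UMIs and 3 with 200. Genes lower in both numbered 44 for the highest 25%, 14 after thinning, 69 with 20 UMIs, 3 with 200, and 49 against the lowest scores only. For KO over Flox, 90 genes were higher and 446 lower with 20 UMIs, and 20 and 34 with 200. Differences between the sets numbered 18 higher after thinning, 135 higher and 265 lower with 20 UMIs, and 3 and 12 with 200. The median of mitochondrially encoded genes was 1.28 with a limit within each library, 1.297 by mean CPM and 1.28 with TMM factors. Log2 ratios that changed sign were those of Ucp1 for KO over Flox, 0.20 with a limit within each library and 0.21 for the highest 25%. High-score over other base nuclei, Lama2 in the KO library was at 0.0023 and Ston1 in the Flox library at -0.18 after thinning, Opcml in the Flox library at 0.36 without Scrublet doublets, and Lama2 in the Flox library at 0.37 among nuclei of 2000 to 4000 UMIs. Held out of its own side of the score, an alternative chosen after seeing the data, Fgf14 in the Flox library was at 0.031 and Ntrk3 in the KO library at 0.093. The cause was not tested for any of these, beyond the smaller or larger number of genes counted when the minimum changed. Ucp1 rests on 153 UMIs in high-score nuclei of the KO library and 256 in those of the Flox library.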

Other observations

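A few genes had opposite signs in the 2 libraries between high-score and other base nuclei. Cdkn1a, the cell cycle inhibitor p21, had log2 ratios of -0.22 in the KO library and 0.68 in the Flox library, and Sesn2, a stress-induced regulator of mTORC1, -0.62 and 0.32. Ryr2, the calcium release channel, was at 0.65 and -0.32. These genes were chosen after their values were seen, and of 13 measured genes of the p53 list 3 were above 0 in both libraries, 4 below 0 in both and 6 of opposite sign, where 4509 of all 10588 genes had opposite signs.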
